A study of Mus musculus with 48 samples.

Results

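The large ribosomal subunit (60S) of mouse cells carries a shared set of proteins, each encoded by its own gene, and 44 of these genes are described here. They were taken from a table of 55487 genes by their symbols, which each occurred once, and they comprise the cytosolic large-subunit genes apart from Rpl22. The choice went by symbol, although earlier results of these data were known when the list was made. All 44 passed the filter on low counts in RNA, in ribosome footprints and in the fit of footprints relative to RNA. Ba/F3, the line used throughout, derives from mouse pro-B cells and survives only with interleukin 3 (IL-3). The 24 CRISPR-Cas9 clones fell into 8 genotypes with 3 clones each. WT was compared with loss of 1 allele of Rpl5 (Rpl5+/-), Rpl11 (Rpl11+/-) or Rpl22 (Rpl22+/-) and of both Rpl22 alleles (Rpl22-/-). A further 3 genotypes changed 1 residue: R98S in Rpl10, and P131S or H137Y in the small-subunit protein Rps15. The genotype labels write R98S, P131S and H137Y on both alleles, although the RNA titles of the P131S clones name that mutation once. All clones, WT included, were cultured with 10% serum plus IL-3 at 1 ng/ml, and cycloheximide (0.1 mg/ml, 1 min) was given before lysis. Each lysate gave 1 poly(A) RNA-seq library and 1 library of footprints, the 28 to 30 nt of messenger RNA that a translating ribosome protects from nuclease. The replicates are clones, so p-values measure the spread between clones.

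Ribosomal proteins are made in matching amounts because an assembled 60S subunit holds about 1 copy of nearly all of them. Rpl5 and Rpl11 bind 5S ribosomal RNA as a separate particle before it joins the subunit, and the same particle can bind Mdm2, the ubiquitin ligase of p53. The acidic proteins Rplp1 and Rplp2 sit on Rplp0 and form the P stalk, which recruits translation factors, with Rpl12 at its base. Rpl3, Rpl8 and Rpl10 lie near the peptidyl transferase centre, where peptide bonds form, while Rpl10a lies near the path by which tRNA leaves. Rpl4, Rpl17, Rpl19, Rpl23a, Rpl26, Rpl31, Rpl35 and Rpl39 line the tunnel through which the new peptide leaves or ring its opening. Rpl24, Rpl30 and Rpl41 contact the small subunit. Messenger RNAs of ribosomal protein genes typically begin with a run of pyrimidines, the terminal oligopyrimidine tract, through which growth signals control their translation.

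The start of the gene carries that tract, so the bases around annotated starts were read from RefSeq promoter sequences of build GRCm38.p6. Entries were found for 33 of the 44 members, with 38 start sites. The search was for an unbroken run of C or T, at least 6 bases long, that covers the first transcribed base on the gene's own strand. Such a run was present at 11 of the 38 member starts (28.9%) and at 7.25% of 32851 starts in the whole table. The lines below show 30 bases each, 10 before the start and 20 from it, and capitals mark the run. The first 5 genes are members with a long run. The last 3 are members on which results below turn and whose annotated start holds none.
Rplp2 (chr7:141447641-141447670, plus strand): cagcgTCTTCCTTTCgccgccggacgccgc
Rpl14 (chr9:120571507-120571536, plus strand): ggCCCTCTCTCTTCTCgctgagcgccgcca
Rpl28 (chr7:4792955-4792984, plus strand): tctcgtgTCTCTCTTTCCgtctccggccgc
Rpl35 (chr2:39005112-39005141, minus strand): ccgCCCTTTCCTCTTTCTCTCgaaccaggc
Rpl15 (chr14:18270967-18270996, minus strand): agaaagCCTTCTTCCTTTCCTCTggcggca
Rpl5 (chr5:107900518-107900547, plus strand): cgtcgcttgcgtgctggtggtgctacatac
Rpl10 (chrX:74270806-74270835, plus strand): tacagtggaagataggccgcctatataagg
Rpl41 (chr10:128549149-128549178, minus strand): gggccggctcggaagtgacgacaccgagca
The window of Rpl14 places the start inside 14 pyrimidines and that of Rpl35 inside 18. A missing run says only that these letters are not at the annotated base, which can lie away from the start used in these cells. In P131S the median RNA change was 0.32 on the log2 scale over the 11 members with a run and 0.26 over the 22 without, and in H137Y it was 0.23 and 0.28. The other RNA medians were 0.29 and 0.24 in Rpl5+/-, 0.32 and 0.31 in Rpl11+/- and 0.22 and 0.18 in R98S. They were 0.05 and 0.05 in Rpl22+/- and 0.14 and 0.12 in Rpl22-/-, with all its clones included. In footprints the medians were 0.48 with a run and 0.23 without in Rpl11+/-, 0.33 and 0.13 in Rpl22+/-, 0.30 and 0.33 in R98S and 0.36 and 0.34 in P131S, with no test. They were 0.14 and 0.13 in Rpl5+/- and 0.15 and 0.06 in H137Y, but 0.03 and 0.09 in Rpl22-/-. Among the members with a run, footprints of Rpl14, Rpl15, Rpl28, Rpl34 and Rpl38 are uncertain, as described below, and Rpl35 had very few.

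RNA-seq libraries held 13029073 to 38258559 estimated counts and footprint libraries 15598994 to 72044439. Rpl22 RNA was 933 to 967 CPM (a library's counts rescaled to 1 common total after TMM scaling) in WT and 664 to 712 CPM in Rpl22+/-. Rpl22 footprints were 2351 to 2784 CPM in WT. In Rpl22-/- they were 274 CPM in clone 649 and 317 CPM in clone 776, but 1544 CPM in clone 30, a value among the 1428 to 1596 CPM of Rpl22+/-. Clone 30 therefore goes against its label at this level, and the calls, medians over all members and named values of Rpl22-/- are also given without it. Of the B-lineage genes reported, Pax5, Ebf1, Vpreb1, Igll1, Rag1 and Il7r stayed under 1 CPM in every RNA library. Cd79a ran from 0 to 9.81 CPM, Cd79b from 3.34 to 9.91 CPM, and Ptprc, which most blood cells express, from 167 to 302 CPM. T-cell markers stayed under 1 CPM. Granulocyte markers (Mpo, Elane, S100a8, S100a9, Ms4a3) summed to 9.53 to 101 CPM in WT, 120 to 322 CPM in Rpl5+/-, 480 to 2416 CPM in P131S and 445 to 2448 CPM in H137Y, but 4.77 to 10.4 CPM in R98S. Erythroid markers summed to 18.5 to 43.5 CPM in WT, 61.6 to 68.8 CPM in Rpl11+/- and 46 to 274 CPM in H137Y. IL-3 receptor genes summed to 876 to 1039 CPM in WT, 1278 to 1337 CPM in Rpl5+/- and 1071 to 1945 CPM in Rpl11+/-. The sum was 1149 to 1495 CPM in Rpl22+/-, 2234 to 2845 CPM in P131S and 1421 to 2511 CPM in H137Y. Rpl22-/- and R98S overlapped WT. Macrophage markers (Adgre1, Csf1r) summed to 140 to 165 CPM in WT and 77.1 to 101 CPM in P131S. They were 62.4 to 135 CPM in H137Y and 119 to 124 CPM in R98S, and the other genotypes overlapped WT. The part of all these markers in the results below was not tested. In a bulk sample, fewer cells of a type and less RNA per cell cannot be told apart.

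Members took a larger share of the RNA in most mutant genotypes. They made up 8.26% ± 0.0672 (SD, n = 3 clones) of RNA counts in WT, 9.26% ± 0.206 in Rpl5+/-, 9.48% ± 0.236 in Rpl11+/-, 9.11% ± 0.146 in R98S and 9.03% ± 0.108 in P131S. In H137Y the share was 9.36% ± 0.796, with clone 6 at 8.45% and the highest clone at 9.95%. In Rpl22-/- it was 8.63% ± 0.266, with 8.39% and 8.57% in the clones other than clone 30. All clones of these 6 genotypes lay above the WT maximum of 8.32%. Rpl22+/-, at 8.28% ± 0.222, overlapped WT. Footprint shares were lower throughout, at 3.82% ± 0.0976 in WT, 4.26% ± 0.12 in Rpl11+/-, 4.43% ± 0.163 in R98S, 4.09% ± 0.211 in P131S and 3.61% ± 0.127 in H137Y. At that level R98S and Rpl11+/- lay wholly above WT, and H137Y clones overlapped the WT range of 3.72% to 3.92%.

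**Figure D1:**
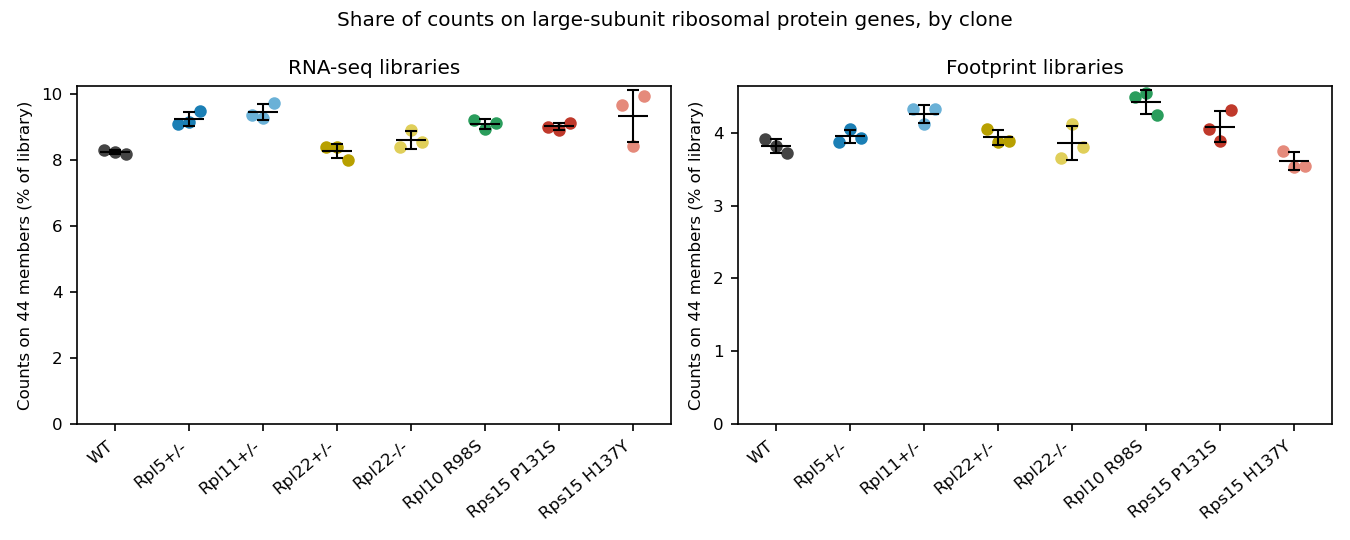
Share of all counts of a library that fell on the 44 members, in percent, for RNA-seq (left) and footprint libraries (right). Points are clones, and the bar and whiskers are the mean and SD of 3 clones. RNA shares of all mutant genotypes but Rpl22+/- lie above the 8.19% to 8.32% of WT, least so in Rpl22-/- and in the H137Y clone at 8.45%.

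Rpl5 and Rpl11, the proteins of the 5S particle, were each lowered in their own heterozygotes. Rpl5 RNA was 2327, 2338 and 2283 CPM in the WT clones and 1544, 1534 and 1588 CPM in Rpl5+/-. It was 2710, 2833 and 2728 CPM in Rpl11+/-, 2303, 2291 and 2325 CPM in Rpl22+/-, 2286, 2616 and 2438 CPM in Rpl22-/- and 2416, 2339 and 2410 CPM in R98S. In P131S it was 2300, 2536 and 2586 CPM and in H137Y 2701, 2706 and 2673 CPM. The Rpl5+/- clones were the lowest of all 24, and the Rpl11+/- and H137Y clones the highest. In Rpl5+/- the RNA fell to 67.2% of WT (log2 change -0.57, SE 0.05, edgeR quasi-likelihood adjusted p = 2.49e-06). In Rpl11+/- and H137Y it rose by 0.25 and 0.22 on the log2 scale.

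Rpl11 fell in its own heterozygote. Its RNA was 1686, 1670 and 1665 CPM in WT and 1150, 1008 and 1063 CPM in Rpl11+/-, a fall to 64.1% of WT (log2 change -0.64, SE 0.05, adjusted p = 8.09e-07). In Rpl5+/- the clones stood at 1978, 1868 and 2063 CPM, in Rpl22+/- at 1730, 1780 and 1640 CPM and in Rpl22-/- at 1786, 1855 and 1823 CPM. In R98S they stood at 1833, 1828 and 1854 CPM, in P131S at 1868, 1843 and 2024 CPM and in H137Y at 1897, 1900 and 1930 CPM. Among the 7 mutant genotypes only Rpl11+/- lay wholly below WT, and only Rpl22+/- overlapped it. Rpl11 rose in Rpl5+/- (0.23). Without any 1 of the 6 clones other than Rpl5+/- clone 76, the fall of Rpl5 was the sole member call, so this rise was then lost. Both this rise and that of Rpl5 in Rpl11+/- (0.25) were below the median of all members in those genotypes (0.27 and 0.31). Leaving out any of the 6 clones of a comparison kept the fall of the edited gene.

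**Figure D2:**
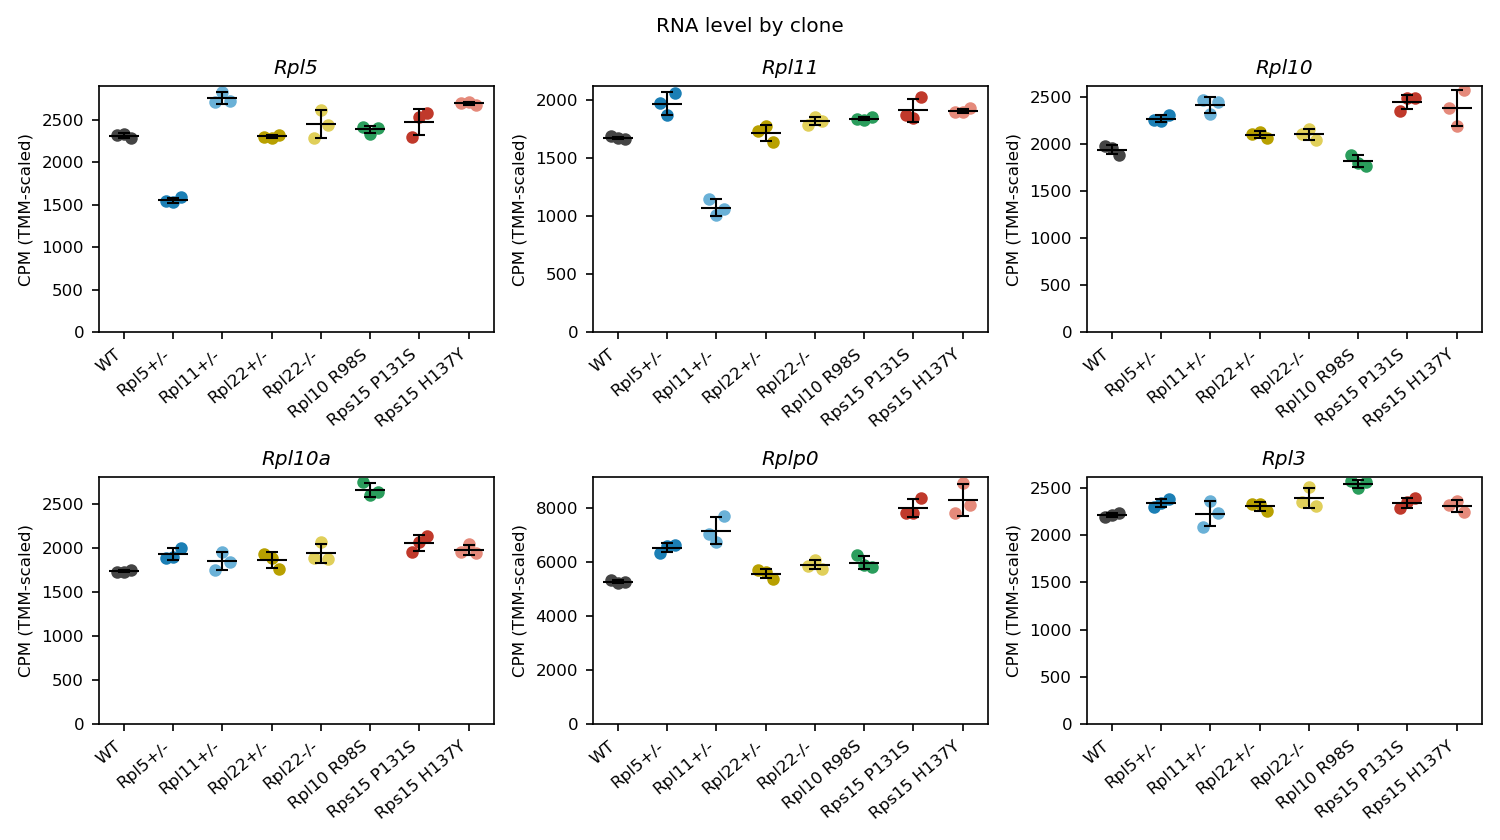
RNA level in CPM of 6 members in every clone, with the mean and SD of 3 clones per genotype. Rpl5 and Rpl11 are low in their own heterozygotes, Rpl10a stands out in R98S at 2608 to 2755 CPM, Rplp0 is highest in both Rps15 genotypes, and Rpl3 lies above WT in R98S at 2499 to 2579 CPM.

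In Rpl5+/- the remaining members moved upward together, by small amounts. Of the 43 members other than Rpl5, 21 were called higher in RNA and 0 lower, against 0.624% of the 12814 tested genes called higher and 0.414% called lower. Their median log2 change was 0.27, against 0.00 over all genes, and all 43 had a positive value, from 0.08 (Rpl3) to 0.44. Rpl36a, an exposed protein near the tRNA exit site, rose most, from 937, 976 and 906 CPM in WT to 1189, 1273 and 1364 CPM (log2 change 0.44, SE 0.08, adjusted p = 0.0162). Rpl35a (0.37), Rpl37 (0.35) and Rpl30 (0.34) followed. By role, 5 of 8 tunnel members and 2 of 3 bridge members were called, but 1 of 4 in the peptidyl transferase group, Rpl10 (0.22), which was lost when its pseudogenes were added. These calls sat close to the threshold, since without any 1 of the 6 clones 1 to 6 members were called in all, while the median stayed between 0.24 and 0.28. Leaving out a clone also loosened the filter on low counts, and its part in the lost calls was not tested. With no filter 7 members were called, with scaling factors from genes outside the ribosome 10, and in a fit to the 2 genotypes alone 41. No share of all genes called in those fits is given to set these counts against.

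Rpl11+/- showed the same direction with more calls. Of the 43 members other than Rpl11, 35 were higher and 0 lower in RNA, against 5.73% of all genes called higher and 6.05% called lower, and the median was 0.31. Rplp2 of the P stalk rose from 1139, 1201 and 1180 CPM to 1536, 1539 and 1827 CPM (log2 change 0.48, SE 0.10, adjusted p = 0.00509) and Rplp0 rose by 0.44, while Rplp1 (0.39, adjusted p = 0.0549) was not called. Rpl37a (0.48) and Rpl38 (0.45) were the other leading calls, and both were lost without WT clone 1 or Rpl11+/- clone 22, with adjusted p of up to 0.103 and 0.14. Rpl38 was also lost without WT clone 3. All 3 bridge members and 7 of 8 tunnel members were called. Rpl3 (0.01), Rpl7a (0.07) and Rpl10a (0.09) had the smallest changes and were not called.

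In the Rpl22 genotypes the members stayed near WT. In Rpl22+/- no member was called in RNA, where 3.9% of all genes were called in either direction, and the median was 0.05. A single member, Rpl10 (0.11), had an unadjusted p under 0.05 there, Rpl18 (0.09) came next, and DESeq2 and limma voom also called 0. In Rpl22-/- 1 member was called, Rpl19 at the tunnel exit (log2 change 0.20, SE 0.06, adjusted p = 0.0371), against 1.47% of genes called higher. Without clone 30, whose Rpl22 footprints go against its label, 0 members were called, and the call was also lost without clone 776 or any WT clone. The median was 0.13, and 0.09 without clone 30.

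Rpl10 R98S changes a residue of the protein that completes the peptidyl transferase region, and Rpl10 RNA itself was not called. It was 1982, 1960 and 1884 CPM in WT and 1885, 1800 and 1765 CPM in R98S (log2 change -0.10, SE 0.05, adjusted p = 0.249), and the groups overlapped by 1 clone each, at 1884 and 1885 CPM. It was 2252, 2243 and 2312 CPM in Rpl5+/-, 2473, 2323 and 2448 CPM in Rpl11+/-, 2105, 2132 and 2059 CPM in Rpl22+/- and 2111, 2160 and 2045 CPM in Rpl22-/-. In P131S it was 2356, 2486 and 2493 CPM and in H137Y 2383, 2189 and 2575 CPM. R98S was thus the only mutant genotype whose Rpl10 clones did not all lie above WT.

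Of the 43 other members 22 were higher and 0 lower in R98S RNA, against 6.84% of all genes called higher, with a median of 0.18. Rpl10a stood apart. Its RNA was 1730, 1735 and 1755 CPM in WT and 2755, 2608 and 2637 CPM in R98S (log2 change 0.62, SE 0.06, adjusted p = 6.69e-07), while the other 6 mutant genotypes spanned 1752 to 2142 CPM. Rpl7a, a protein of the solvent face, rose from 2047, 2093 and 2039 CPM to 2626, 2656 and 2593 CPM (log2 change 0.35, SE 0.05, adjusted p = 0.000314). Rpl13a (0.28) and Rpl35a (0.28) came next. The calls on Rpl10a, Rpl7a and Rpl13a held without each clone in turn, whereas Rpl35a was lost without any 1 of the 6 (adjusted p up to 0.167). Without 1 clone 6 to 10 members were called in all, with no filter 7, and with the 2 genotypes alone 40. The share of all genes called in these other fits is not given, so these counts show only how far the member calls moved.

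The 2 Rps15 genotypes carry a mutation in a small-subunit protein, and large-subunit members were raised in RNA in both. In P131S 38 of 44 were called higher and 0 lower, against 23.7% of all genes called higher, with a median of 0.29. In H137Y 34 of 44 were called higher and 0 lower, against 21%, with a median of 0.28. Rplp0, the P-stalk scaffold, had the largest change in both. It was 5328, 5207 and 5257 CPM in WT, 7802, 7794 and 8365 CPM in P131S (a log2 rise of 0.60, SE 0.06, with adjusted p = 1.29e-07) and 7797, 8930 and 8082 CPM in H137Y (0.65, SE 0.06, adjusted p = 3e-08). No clone of either genotype overlapped WT.

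The stalk group as a whole led P131S, with all 4 members called and a median of 0.54. Rplp1 rose by 0.57 and Rplp2 by 0.52, and Rpl41, a very short bridge protein, rose by 0.46. In H137Y the stalk partners were split by clone. Rplp1 was 3004, 1938 and 3346 CPM in H137Y against 2223, 2248 and 2207 CPM in WT, and Rplp2 was 1638, 1150 and 1760 CPM against 1139, 1201 and 1180 CPM. Clone 6 was below WT for Rplp1 and within it for Rplp2, and the other clones were above. These further genes were chosen after their values were seen. Clone 6 was also below all WT clones for Rpl37a (1180 against 1414, 1383 and 1282 CPM), Rpl38 (823 against 1066, 1084 and 923 CPM) and Rpl41 (2242 against 2430, 2471 and 2274 CPM). It was the highest H137Y clone for Rplp0, Rpl6 (2904, 3242 and 2876 CPM) and Rpl29 (550, 651 and 438 CPM), so the members did not shift together in it. Without clone 6, 42 members were called in H137Y, and without any other clone 31 or 32. Rpl29 (0.46), Rpl14 (0.42) and Rpl6 (0.39) were the next largest calls in H137Y and held without each clone.

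Rpl3 was called in RNA in R98S alone among the comparisons with WT, where its clones stood at 2579, 2499 and 2561 CPM. Its 3 WT clones were at 2192, 2211 and 2235 CPM, and the 21 mutant clones lay between 2093 and 2579 CPM. Rows named as Rpl3 pseudogenes held a further 865 RNA CPM in WT, 28.1% of the RNA on the gene and those rows. With such rows added the R98S call on Rpl3 was kept. On the row of Rpl3 alone the change was 0.20 in R98S, 0.08 in Rpl5+/-, 0.01 in Rpl11+/-, 0.08 in P131S and 0.06 in H137Y, the last 4 not called. Those 4 comparisons gave Rpl17, a tunnel-rim protein, 0.27, 0.23, -0.01 and 0.11, with calls in the first 2. All comparisons with WT share the same 3 WT clones, so their agreement is not independent.

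**Figure D3:**
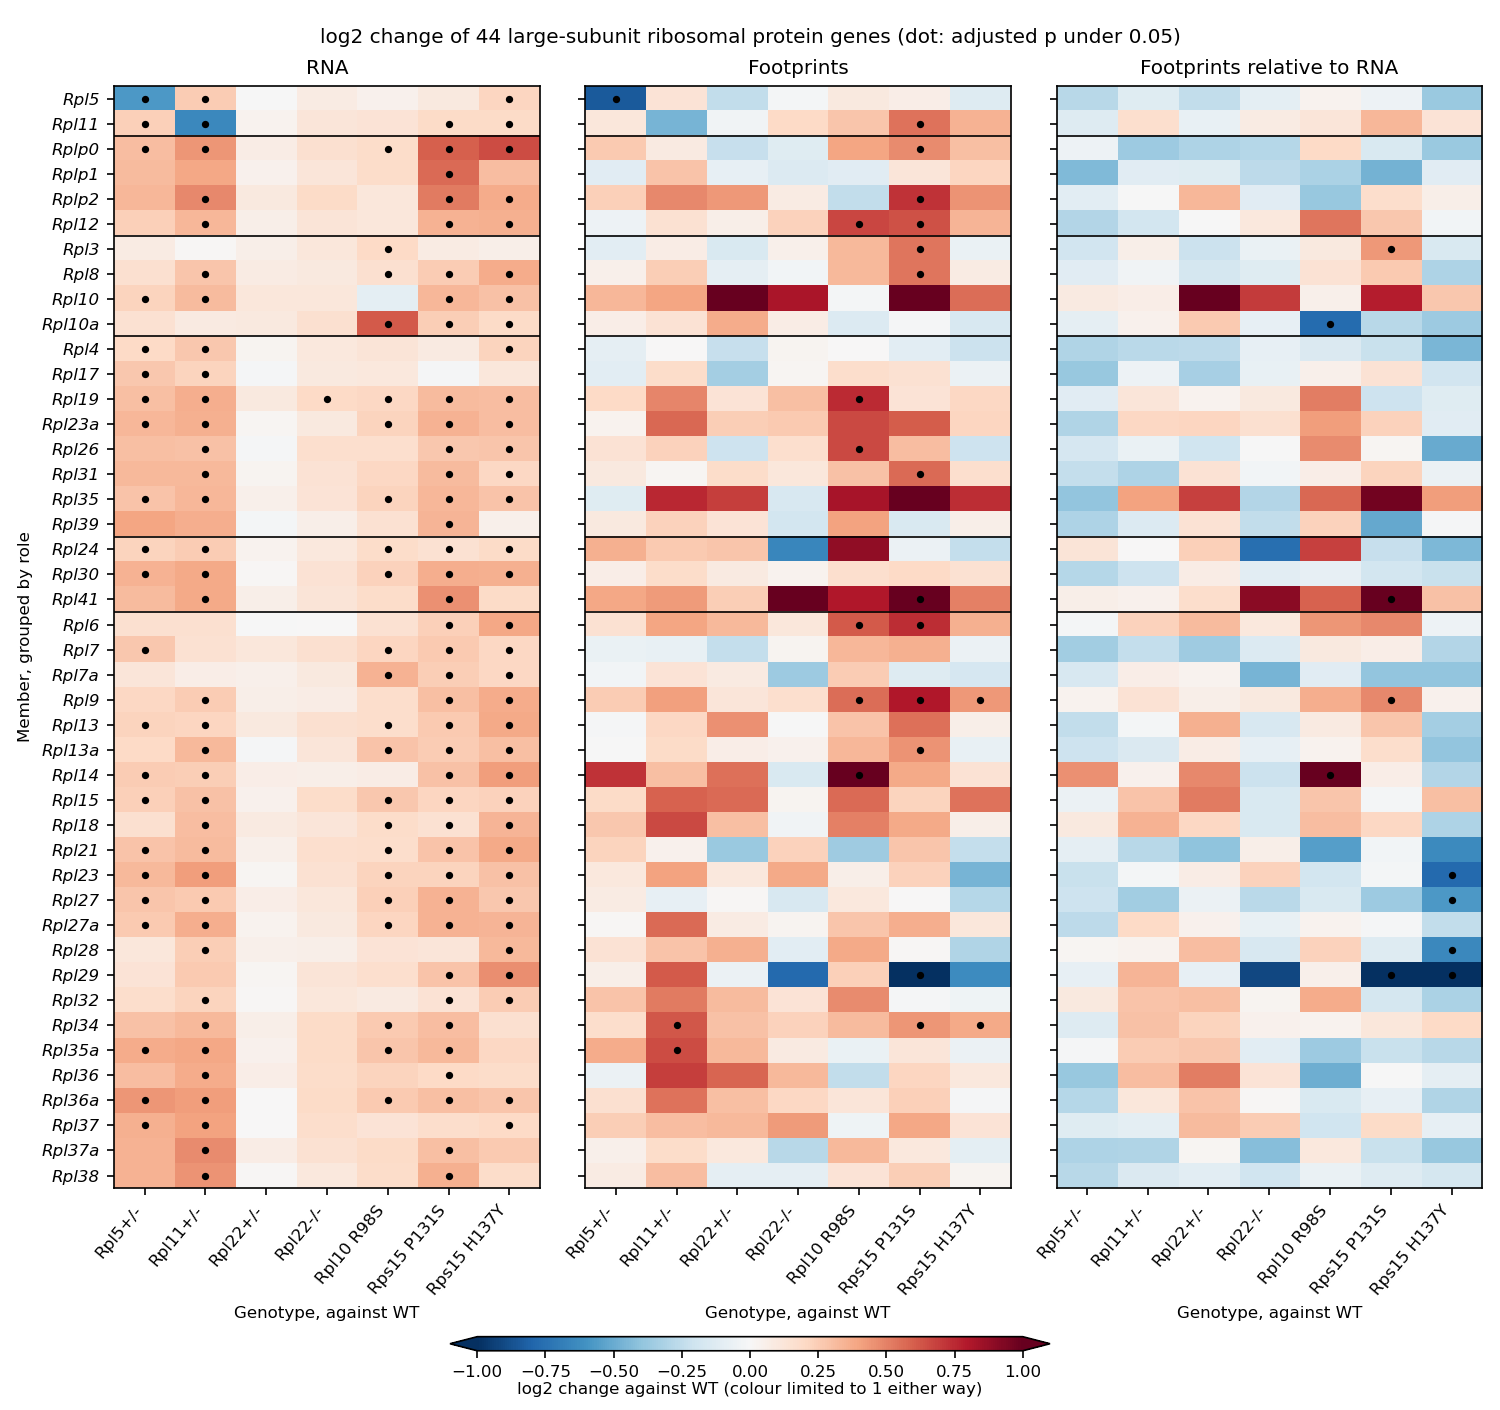
log2 change against WT of every member (lines) in each mutant genotype (columns) in RNA, in footprints and in footprints relative to RNA, with red higher, blue lower, colour limited to 1 either way, and a dot where the adjusted p is under 0.05. Horizontal lines part the role groups. The RNA panel is red almost throughout outside the Rpl22 columns, and the footprint panels hold few dots.

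Footprints of several members were divided between the gene and copies of it. The mouse genome holds many processed pseudogenes of ribosomal protein genes, and 187 rows named as pseudogenes of 34 members were in the table. They held 0.479% to 0.717% of footprint counts but 0.101% to 0.122% of RNA counts. In WT the ratio of footprint CPM to RNA CPM had a median of 0.483 over the 44 members and ran from 0.00182 for Rpl10 to 1.88 for Rpl37. The lowest 4 were Rpl10, Rpl35 (0.0019), Rpl21 (0.00323) and Rpl15 (0.056). The highest 4 were Rpl37 (1.88 ± 0.171), Rpl27 (1.68 ± 0.0657), Rpl26 (1.6 ± 0.337) and Rpl4 (1.15 ± 0.113). Neighbours at the top, such as Rpl27 and Rpl26, did not differ beyond their spread.

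For Rpl10 the copies held nearly all footprints. The gene itself had 3.84, 3.09 and 3.67 footprint CPM in WT, while the row Rpl10-ps3 had 1160 CPM ± 94.9 in footprints and 18.2 CPM ± 6.98 in RNA. Rpl14-ps1 held 936 CPM and Rpl14 141 CPM, and Rpl19-ps11 held 803 CPM and Rpl19 408 CPM. In 5 members over 50% of the footprints on the gene and its named copies lay on the copies, and in 12 over 10%. In RNA 1 member had over 10% on its copies, Rpl3 at 28.1%. When the rows were added to their parents, the WT ratio became 0.593 for Rpl10 and 0.49 for Rpl14, while Rpl35 stayed at 0.00192. The 4 highest were then Rpl37, Rpl27, Rpl26 and Rpl38 (1.32), with Rpl36a (1.25) above Rpl4, and Rpl10 gave its place among the 4 lowest to Rpl12 (0.0753). A footprint on such a row may come from the gene, the copy or both, which was not tested, so footprint values of these 12 members (Rpl3, Rpl9, Rpl10, Rpl14, Rpl15, Rpl19, Rpl21, Rpl28, Rpl34, Rpl36, Rpl36a and Rpl38) are uncertain. Only rows that carry a member's symbol and a pseudogene suffix were sought. Copies under other names were not, so the remaining members are not shown to be free of this.

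**Figure D4:**
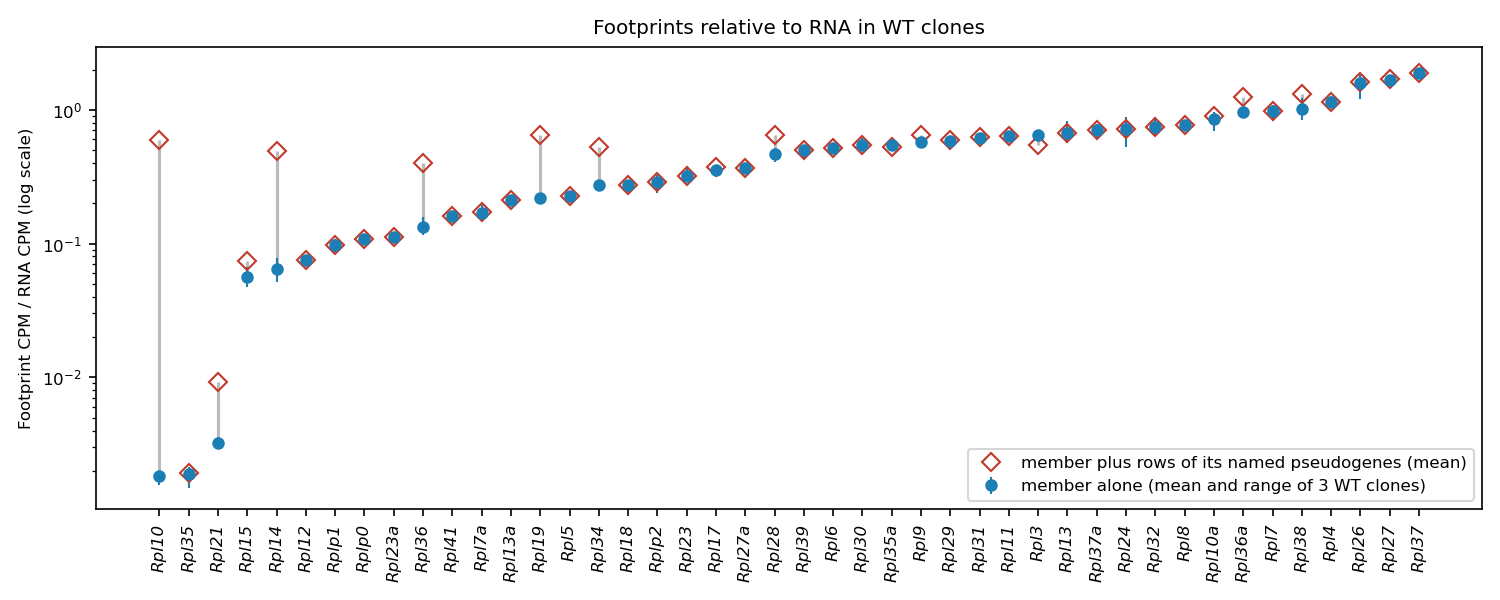
Ratio of footprint CPM to RNA CPM in WT on a log axis, for each member in order of the ratio, as the mean and range of 3 clones (filled) and as the mean after rows of named pseudogenes were added (open). Rpl10 moves from 0.00182 to 0.593 and Rpl14 from 0.0645 to 0.49, while most members do not move.

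In footprints fewer members were called than in RNA. The SE of Rpl5, Rpl10 and Rpl11 in their own genotypes was larger in footprints than in RNA. Fewer calls were not smaller changes in every genotype. With other settings or a clone left out, the R98S member median ran from 0.179 to 0.202 in RNA and from 0.269 to 0.339 in footprints. In Rpl5+/- and H137Y the footprint median was the lower one. In Rpl5+/- 1 member was called, Rpl5 itself, which fell from 489, 529 and 557 CPM to 295, 318 and 267 CPM, or 55.8% of WT (-0.84 on the log2 scale, SE 0.12, with an adjusted p = 0.00785). It was the sole gene called lower among 16217 (0.00617%). Its clones did not overlap WT, but the call was lost without WT clone 1 or 2 or Rpl5+/- clone 68 or 80, with adjusted p of up to 0.195. Among the other 43 members 0 were called, with a median of 0.10. In Rpl11+/- the edited gene was 842, 665 and 826 CPM against 1038, 1163 and 1023 CPM (log2 change -0.47, SE 0.13, adjusted p = 0.173), a gap with no overlap that missed the threshold. In the other genotypes Rpl11 footprints spanned 997 to 1729 CPM. Those of Rpl5 spanned 431 to 667 CPM outside its own heterozygote.

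Rpl35a and Rpl34 were the members called in Rpl11+/- footprints, at 0.65 (SE 0.12, adjusted p = 0.0374) and 0.62 (SE 0.11, adjusted p = 0.033), against 0.0617% of genes called higher. Both were lost without any clone but Rpl11+/- clone 414, and Rpl34 also when its copies were added (0.51, adjusted p = 0.252). The median over the members was 0.29. In Rpl22+/- 0 members were called, against 0.253% of genes in either direction, with 13 at an unadjusted p under 0.05 and 1 called by DESeq2. How many of all genes pass that unadjusted cut is not given here, so the 13 cannot be set against a share. The lowest p belonged to Rpl10, at 15.6, 9.22 and 7.93 CPM (log2 change 1.63, SE 0.44, adjusted p = 0.12), which became -0.04 with its copies added, and to Rpl36a (0.30, adjusted p = 0.23). In Rpl22-/- 0 were called too, against 0.105%, with 7 at an unadjusted p under 0.05 and 1 called by DESeq2. Rpl41 was 390, 412 and 342 CPM in WT and 743, 774 and 837 CPM in Rpl22-/- (log2 change 1.04, SE 0.27, adjusted p = 0.204), so clones were far apart without a call. Without clone 30 the count stayed 0, the member median went from 0.04 to -0.01, and Rpl41 had 1.05 (adjusted p = 0.459).

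In R98S 6 members were called higher in footprints and 0 lower, against 0.814% of genes called higher, and the median was 0.31. Rpl19 rose from 380, 434 and 410 CPM to 679, 726 and 647 CPM (log2 change 0.75, SE 0.14, adjusted p = 0.00917), and Rpl12, at the stalk base, from 179, 206 and 177 CPM to 253, 334 and 308 CPM (0.67, SE 0.13, adjusted p = 0.00969). Rpl26 (0.66), a tunnel-rim protein that also binds p53 messenger RNA, Rpl6 (0.62) and Rpl9 (0.55) were called as well. Rpl14 had the largest value, from 140, 170 and 113 CPM to 336, 308 and 518 CPM (1.46, SE 0.29, adjusted p = 0.0138). With its copies added Rpl14 gave 0.36 and was not called (adjusted p = 0.508). Rpl10, on the edited gene, was 1.79, 5.57 and 3.09 CPM in R98S and overlapped WT (log2 change -0.02, SE 0.43, adjusted p = 0.997). The sum of Rpl10 and its copies was 1258 to 1579 CPM in R98S and 1093 to 1271 CPM in WT, which overlapped. Without 1 clone 0 to 4 members were called, and 0 without WT clone 1. Rpl19 was lost without that clone alone (adjusted p = 0.0612), Rpl12 also without WT clone 3 or R98S clone A29 or A34, and Rpl26 without any 1 of the 6.

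P131S had the most footprint calls. Of 44 members 12 were higher, against 8.43% of genes called higher, and 1 was lower, against 8.26% called lower, with a median of 0.29. Rpl41 rose from 390, 412 and 342 CPM to 900, 1337 and 988 CPM (log2 change 1.49, SE 0.27, adjusted p = 0.000857). Rpl9, which lies by the stalk base, rose from 1096, 982 and 956 CPM to 1600, 1628 and 2050 CPM (0.80, SE 0.12, adjusted p = 0.000171). Neither gene's clones overlapped WT. Rpl6 (0.74), Rplp2 (0.72), Rpl12 (0.64), Rplp0 (0.47), Rpl3 (0.54), Rpl8 (0.54) and Rpl11 (0.54) were among the others.

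Rpl29, a small protein of the outer surface, went the other way in P131S. Its footprints were 205, 225 and 262 CPM in WT and 81.5, 80 and 97.3 CPM in P131S, or 37.4% of WT (a log2 change of -1.42, SE 0.24, with adjusted p = 0.000487), while its RNA rose from 368, 402 and 418 CPM to 510, 475 and 467 CPM. The fall held without each clone. In H137Y its footprints were 132, 151 and 165 CPM and in Rpl22-/- 78.7, 185 and 140 CPM, both wholly below WT and neither called. With named copies added 18 members were called in P131S, since Rpl10 (0.42), Rpl15 (1.23), Rpl17, Rpl19, Rpl36 (1.33) and Rpl38 were then called and Rpl34 was not.

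In H137Y 2 members were called higher in footprints, Rpl9 (0.43, SE 0.12, adjusted p = 0.0198) and Rpl34 (0.38, SE 0.11, adjusted p = 0.0328), against 5.24% of genes called higher. This share of members is close to that of all genes, and the median was 0.06. Both calls were lost without WT clone 1 or 2 or H137Y clone 2 or 16 (adjusted p up to 0.0963 and 0.121), and Rpl34 also with its copies added (0.42, adjusted p = 0.102). Rpl41 was 808, 409 and 406 CPM, so that clone 16 alone stood above the 390, 412 and 342 CPM of WT.

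**Figure D5:**
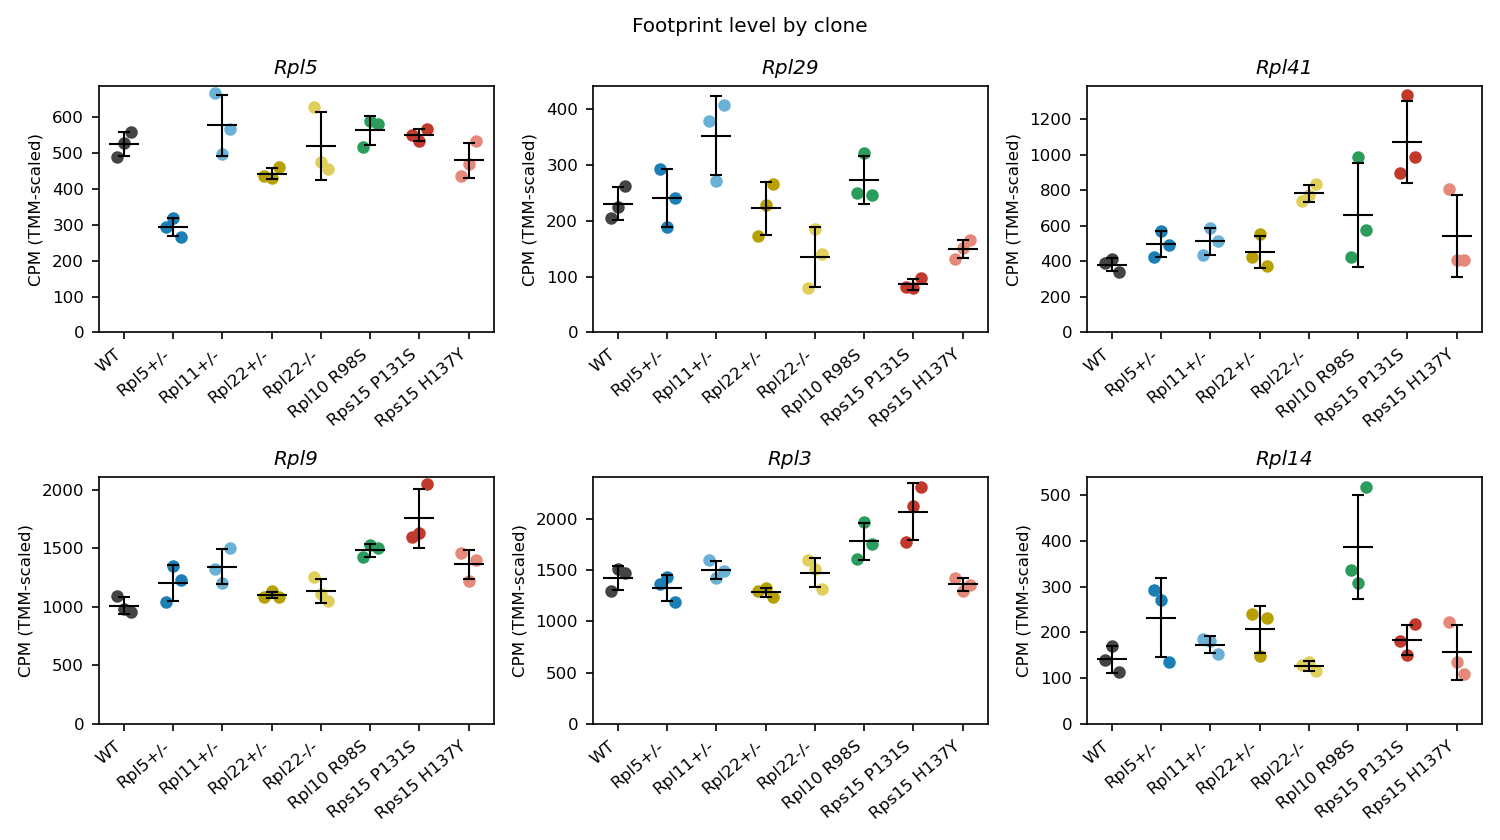
Footprint level in CPM of 6 members in every clone, with the mean and SD of 3 clones per genotype. Rpl5 is low in its heterozygote, Rpl29 is low in all P131S clones at 80 to 97.3 CPM and in 1 Rpl22-/- clone at 78.7 CPM, Rpl41 and Rpl9 are high in P131S, and Rpl14 is high in R98S before its copies are added.

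Footprints relative to RNA, the translational efficiency, were tested as an interaction of assay and genotype over all 48 libraries. In Rpl5+/- and Rpl11+/- edgeR called 0 members and 0 genes of 16568 (0% in both), and DESeq2 and limma voom also called 0 members. At an unadjusted p under 0.05 there were 5 and 4 members, with no share of all genes at that cut to set them against. The member medians were -0.16 and 0.02. Rpl5 had -0.28 (SE 0.13) in its own heterozygote and Rpl11 0.16 (SE 0.14), both with adjusted p = 1. The lowest p belonged to Rpl17 (-0.38) and Rpl7 (-0.34) in Rpl5+/- and to Rpl27 (-0.35) and Rplp0 (-0.36) in Rpl11+/-, values that did not pass the test. In Rpl22+/- and Rpl22-/- 0 members were called, against 0.00604% and 0.0121% of genes, with 7 and 6 at an unadjusted p under 0.05. DESeq2 and limma voom each called 1 member in Rpl22+/- and 0 in Rpl22-/-. Rpl10 (1.53, or -0.16 with its copies added) and Rpl7 (-0.35) had the lowest p in Rpl22+/-, and Rpl29 (-0.91) and Rpl7a (-0.46) in Rpl22-/-. Without clone 30 these became -1.12 and -0.53, with 0 members called and a median of -0.10.

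R98S gave 2 calls, against 0.211% of genes. Rpl10a had a lower footprint level for its RNA (log2 change -0.77, SE 0.14, adjusted p = 0.00291), since its footprints were 1654, 1202 and 1623 CPM in WT and 1412, 1370 and 1297 CPM in R98S while its RNA rose. The groups of footprint values overlapped. The call was lost without WT clone 1 or 3 or R98S clone A34, with adjusted p of up to 0.0904. Rpl14 had 1.36 (SE 0.30, adjusted p = 0.0287), which became 0.26 (adjusted p = 1) with its copies added and 1.35 (adjusted p = 0.0631) with the clone as a block.

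P131S gave 4 calls, against 3.14% of genes. Rpl29 fell by 1.73 (SE 0.27, adjusted p = 0.000147) and was the one call of these that held without each clone. Rpl41 (1.01, SE 0.29, adjusted p = 0.0464), Rpl9 (0.48, SE 0.13, adjusted p = 0.0317) and Rpl3 (0.43, SE 0.12, adjusted p = 0.0314) rose, each lost without WT clone 1 or 3 or P131S clone 20, with adjusted p of up to 0.172, 0.219 and 0.167. Rpl41 and Rpl9 were also lost without WT clone 2, and Rpl41 and Rpl3 without P131S clone 63. With named copies added Rpl9 was lost (0.35, adjusted p = 0.0893) and Rpl15 was called (0.98, adjusted p = 0.00362). The member median was -0.01.

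H137Y gave 4 calls, all lower, against 2.76% of genes in either direction, and a member median of -0.27 against -0.02 over all genes. They were Rpl29 (-1.11, SE 0.27, adjusted p = 0.0133), Rpl23 (-0.78, SE 0.21, adjusted p = 0.0292), Rpl28 (-0.65, SE 0.17, adjusted p = 0.0278) and Rpl27 (-0.57, SE 0.13, adjusted p = 0.00884). Of 44 members 8 had a positive value. For Rpl27 footprints were 2318, 2076 and 2151 CPM in WT and 1819, 1744 and 1795 CPM in H137Y while RNA was higher, and neither pair of groups overlapped. All 4 calls were lost without any 1 of the WT clones and each without some H137Y clones, so that 0 to 2 members were called with 1 clone left out (adjusted p up to 0.232, for Rpl23).

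The Rps15 genotypes were also compared with each other. WT means do not enter this contrast, but WT clones were part of the fit, its scaling and its estimate of the spread. In RNA 4 members differed, against 25.2% of genes called in either direction, with a median of 0.00. Rpl41 was higher in P131S (0.27), and Rpl28 (-0.20), Rpl18 (-0.19) and Rpl4 (-0.13) were lower. In footprints 6 were called, all higher in P131S, against 4.17% of genes, with a median of 0.25. Rpl3 was 1771, 2120 and 2311 CPM in P131S and 1421, 1298 and 1357 CPM in H137Y (log2 difference 0.61, SE 0.11, adjusted p = 0.00282), and its clones did not overlap. The others were Rpl41 (0.99), Rpl23 (0.69), Rpl13a (0.52), Rpl8 (0.45) and Rpl31 (0.40). Footprints relative to RNA differed for Rpl3 (0.58), Rpl13a (0.57) and Rpl8 (0.56), against 0.682% of genes, with a member median of 0.26. With named copies added Rpl3 was lost (0.44, adjusted p = 0.0503) and Rpl28 was called (0.64, adjusted p = 0.00354). None of these 13 calls was made in a fit to the 6 clones of these 2 genotypes alone, where edgeR called 0 members at each level, and without 1 clone 3 to 8, 1 to 9 and 0 to 5 members were called.

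Other genes of the ribosome pathway, from lists defined by function, went with the members to different degrees. Of 32 small-subunit protein genes, 15 were called higher in RNA in Rpl5+/-, 27 in Rpl11+/-, 7 in R98S, 27 in P131S and 27 in H137Y, against 0.624%, 5.73%, 6.84%, 23.7% and 21% of all genes in the same order, with medians of 0.30, 0.34, 0.13, 0.28 and 0.27. Large and small subunit thus had like medians in 4 of these genotypes, and in R98S the large-subunit median was 0.18, a difference that was not tested. Among 18 other messenger RNAs known for a terminal oligopyrimidine tract, such as elongation factors, 3 were called higher in Rpl5+/-, 9 in Rpl11+/-, 0 in R98S (4 at an unadjusted p under 0.05), 12 in P131S and 11 in H137Y. Of 25 factors of 60S assembly and export, 0 were called higher in RNA in Rpl5+/- (5 at an unadjusted p under 0.05 in either direction), 6 in Rpl11+/-, 8 in R98S, 18 in P131S and 11 in H137Y, with medians of 0.08, 0.22, 0.20, 0.47 and 0.24. In P131S footprints 15 of the 25 were higher, against 8.43% of all genes, with a median of 0.49. Relative to RNA, H137Y had 4 of the 32 small-subunit genes and 4 of the 18 other tract-bearing messenger RNAs called lower and 0 called higher in either list, against 2.76% of all genes called in either direction, beside the 4 lower large-subunit members.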

How the data were processed

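Per the submitters' processing notes, STAR 2.6.1d, Salmon 1.4.0, DESeq2 1.30 and build GRCm38 were used, with no role given. The authors deposited estimated counts per gene, not normalized, for 48 libraries. How reads shared by several genes were assigned is not given in the sources used here. Counts were rounded and tested with edgeR 4.0.16 (R 4.3.3, quasi-likelihood, two-sided) after TMM scaling within each assay. A gene was kept with about 10 counts in at least 3 libraries and 15 in total. With 1 clone left out the filter followed the smaller group, so fewer libraries were required and the genes tested could change. All 24 libraries of an assay, or all 48 for footprints relative to RNA, entered 1 fit without a clone term. Called means a Benjamini-Hochberg adjusted p under 0.05 over all genes of a comparison. The share of all genes called lower is not given for RNA in R98S, P131S and H137Y or for R98S footprints. Counts of 0 lower members there, and counts at an unadjusted p, stand without a share to set them against. So do all counts under alternative settings or with a clone left out. The scripts were tested on simulated data.

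The 44 members and all lists were chosen with earlier results of these data known. Up to 4 called members per direction with the largest change were named in each comparison and assay, or the 2 with the lowest p where none was called, besides Rpl5, Rpl10, Rpl11 and the 4 highest and 4 lowest WT ratios of footprints to RNA. Other members named in the text were chosen after their values were seen. Levels were not compared between genes, since no coding lengths were used here. RNA and footprint libraries of a clone come from 1 divided lysate, per the labels' protocols, and 24 of 24 pairs deviated together (correlations of 0.172 to 0.581 over 12074 genes). The other clones of a genotype gave -0.483 to -0.0134. These negative values add no separate evidence of pairing, because deviations were taken from the mean of the same 3 clones. With 3 clones against 3, an exact test of 1 gene cannot go below 0.1. Alternatives were limma voom (3.58.1), DESeq2 (1.42.0), relative log expression (RLE) scaling, scaling without ribosomal protein genes, no filter, the 2 genotypes alone, each clone left out, named pseudogenes added to their parents, and the clone as a block. A further B-lineage marker is not reported here.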

Additional observations from a re-analysis of the deposited data

Results flagged for a closer look

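Members whose footprints and RNA changed by different amounts, by the interaction test, were Rpl10a (-0.77) and Rpl14 (1.36) in R98S, and Rpl29 (-1.73), Rpl3 (0.43), Rpl9 (0.48) and Rpl41 (1.01) in P131S. In H137Y they were Rpl29 (-1.11), Rpl23 (-0.78), Rpl28 (-0.65) and Rpl27 (-0.57). Values are log2 changes against WT. Of the 13 named calls relative to RNA, which include these, 12 were lost without at least 1 clone. Only the call on Rpl29 in P131S held without each clone. Rpl14 in R98S and Rpl9 in P131S were also lost with named copies added, and Rpl14 with the clone as a block.

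The effects of the 2 Rps15 mutations differed, by the direct test of P131S against H137Y, in RNA for Rpl28 (-0.2), Rpl18 (-0.19), Rpl4 (-0.13) and Rpl41 (0.27). In footprints they differed for Rpl31 (0.4), Rpl8 (0.45), Rpl13a (0.52), Rpl3 (0.61), Rpl23 (0.69) and Rpl41 (0.99). In footprints relative to RNA they differed for Rpl8 (0.56), Rpl13a (0.57) and Rpl3 (0.58). None of these calls, at any level, was made in a fit to the 2 genotypes alone. Groups of 3 clones are too small for the search for single outlying clones.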

How the results depend on the processing

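Of 640 recomputed counts and medians, 527 stayed close to the reported value and 113 moved. Of 1038 values for single members, 829 kept direction and side of the threshold, 191 lost their call, 7 gained one and 11 changed sign. Every sign change concerned Rpl10, which was not called. Except where a sentence says otherwise, the cause of a shift was not tested. The counts below come without the share of all genes called in the same fit. They show how far member calls moved and cannot be read as results about the members.

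With 1 clone left out, RNA calls among members ranged from 6 to 10 in R98S, from 1 to 6 in Rpl5+/-, from 29 to 38 in Rpl11+/-, from 0 to 1 in Rpl22-/-, 32 to 36 in P131S, 31 to 42 in H137Y and 3 to 8 between P131S and H137Y. Footprint calls ranged from 0 to 4 in R98S, from 0 to 5 in Rpl11+/-, from 0 to 1 in Rpl5+/-, from 9 to 14 in P131S, from 0 to 3 in H137Y and from 1 to 9 between P131S and H137Y. In footprints relative to RNA they numbered 0 to 1 in R98S, 1 to 4 in P131S, 0 to 2 in H137Y and 0 to 5 between the 2. Medians ran in P131S from 0.243 to 0.302 (RNA), 0.241 to 0.404 (footprints) and -0.0438 to 0.131 (footprints relative to RNA). Relative to RNA they ran from 0.0629 to 0.147 in Rpl22+/-, -0.234 to -0.184 in H137Y and 0.229 to 0.316 between P131S and H137Y. Rpl10 in R98S ran from -0.538 to 0.300 in footprints and from -0.450 to 0.422 relative to RNA.

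A fit to the 2 genotypes alone, which has fewer clones from which to estimate the spread, called in RNA 41 members in Rpl5+/-, 3 in Rpl22-/-, 40 in R98S and 0 between P131S and H137Y. In footprints it called 0 in Rpl5+/-, 0 in Rpl11+/-, 1 in Rpl22-/-, 10 in R98S, 1 in H137Y and 0 between P131S and H137Y. Relative to RNA it called 1 in Rpl22-/-, 4 in R98S and 0 between P131S and H137Y. With no filter, RNA calls were 7 in Rpl5+/-, 0 in Rpl22-/- and 7 in R98S. Footprint calls were then 4 in Rpl11+/-, 1 in Rpl22+/- (median 0.0853) and 1 in H137Y, and calls relative to RNA 1 in R98S and 1 in P131S.

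DESeq2 called 6 members in RNA in Rpl22-/-. In footprints it called 8 in Rpl11+/-, 1 in Rpl22+/-, 1 in Rpl22-/-, 10 in R98S, 6 in H137Y and 11 between P131S and H137Y. Relative to RNA it called 1 in Rpl22+/-, 4 in R98S and 5 between P131S and H137Y. Limma voom called 1 in Rpl22+/- relative to RNA and gave Rpl10 in R98S -0.134. Scaling without ribosomal protein genes called 10 in RNA in Rpl5+/- and 1 in footprints in H137Y. With pseudogenes added, footprint calls were 1 in Rpl11+/- and 1 in H137Y (median 0.128), and 1 relative to RNA in R98S. The medians relative to RNA were then 0.0572 in P131S and -0.197 in H137Y. Rpl10 became -0.0353 in footprints and -0.158 relative to RNA in Rpl22+/-, and 0.279 in R98S footprints.

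With a block for the clone, the pairing of the assays entered the fit, which called 1 member in R98S and 5 between P131S and H137Y relative to RNA. It gave Rpl14 in R98S 1.35 (adjusted p = 0.0631) and Rpl10 in R98S -0.0442, and changed no other named call. The rows of Rpl10, Rpl35 and Rpl21 had under 10 footprint CPM in WT, so their footprint values rest on few counts, and for Rpl10 99.7% of the footprints lay on named copies.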
